A study of Mus musculus with 2 samples.

Results

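Claudins are the membrane proteins that set the permeability of tight junctions, the seals between neighbouring epithelial cells. Each segment of the nephron carries its own claudins, and these decide which ions and how much water pass between the cells of that segment. The 10 claudin genes described here were Cldn1, Cldn2, Cldn3, Cldn4, Cldn5, Cldn6, Cldn7, Cldn10, Cldn16 and Cldn19. Their chromatin accessibility was read from single-nucleus ATAC-seq, an assay that counts, for each nucleus, the cuts a transposase makes in accessible DNA. Members were the peaks that overlap the body of one of these genes or the 2 kb upstream of it, in the GENCODE M21 annotation of mm10. There were 35 such peaks among 159560 in the Enl-WT library and 23 among 130027 in the Enl-T1 library.

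The study compared kidneys of mouse embryos at E15.5. Enl encodes a reader of acetylated histones, and the T1 allele carries a small insertion in its reader domain, as found in Wilms tumour. Enl-T1 kidneys carried 1 copy of the conditional T1 allele together with Wt1 GFPCre/+, and Enl-WT kidneys were Enl+/+ with Wt1 GFPCre/+. Cre was therefore made under the Wt1 promoter, and both groups carried the Wt1 knock-in allele, so that neither had 2 intact copies of Wt1. Each group was 1 library, the number of embryos behind each library was not given in the sources used here, and the mutation itself cannot be read from peak counts. With 1 library a group there was no test: every interval below is a 95% interval for counting error alone, and differences between libraries cannot be told apart from differences between the groups.

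Barcodes numbered 9628 in the Enl-WT library, with 138176616 counts, and 13376 in the Enl-T1 library, with 110265593 counts. Nuclei with 2000 to 100000 counts were kept, 9472 in Enl-WT and 12635 in Enl-T1, with a median of 14790 and 8753 counts. The libraries shared 169 barcodes. Nuclei were clustered without the claudin regions and named from marker genes, none of them a claudin. There were 1856 nephron progenitors in Enl-WT against 4072 in Enl-T1. In the same order there were 566 and 127 nuclei of early nephron epithelium, 821 and 50 of proximal tubule, 701 and 79 of distal tubule or loop of Henle, 863 and 1620 of ureteric epithelium, 2880 and 4760 of stroma, 726 and 589 of endothelium, and 100 and 163 immune nuclei. The 324 podocytes were all from Enl-WT. Clusters without a name held 611 and 1110 nuclei. One of these scored as progenitor but was led in part by stromal genes, with 54 and 215 nuclei, and another scored as endothelium but was led by epithelial genes, with 85 and 191 nuclei. The Enl-T1 progenitors came mainly from a cluster of 2920 nuclei and a cluster of 1038 nuclei that held 2 and 1 Enl-WT nuclei, while 1853 of the Enl-WT progenitors lay in another cluster with 114 Enl-T1 nuclei. The larger Enl-T1 cluster rested on 3 raised progenitor markers, and with the libraries clustered apart 1355 Enl-T1 nuclei were named progenitor and 2836 early nephron epithelium, against 1894 and 881 in Enl-WT.

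Levels are given as CPM, the counts of a gene per 1e+06 counts of that class of nuclei and library in regions shared by both libraries. The peaks of the members joined into 38 regions, of which 20 were shared by both libraries, 15 held a peak of Enl-WT alone and 3 a peak of Enl-T1 alone. A library's file holds counts only for its own peaks, so a region without a peak has no value in that library, which is different from a value of 0. Of the 10 members, 9 had at least 1 shared region. Cldn2 had 5 peaks in Enl-WT and none in Enl-T1, and so has no ratio between the libraries.

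The sequences below were chosen because the segment-specific values and the largest differences described below lie in them, with the variant b promoter beside its counterpart. They are the start-site windows of Cldn10 and Cldn4 and the central 300 bases of 3 regions away from a start site. Promoters are from RefSeq on GRCm38.p6, 250 bases before to 30 bases after the start, on the strand of the gene, and all 10 members matched a RefSeq promoter. Region sequences are the plus strand of the same assembly, which is mm10. Capitals mark letters that match a searched motif on either strand.
Cldn10 variant a promoter, chr14:118787621-118787900: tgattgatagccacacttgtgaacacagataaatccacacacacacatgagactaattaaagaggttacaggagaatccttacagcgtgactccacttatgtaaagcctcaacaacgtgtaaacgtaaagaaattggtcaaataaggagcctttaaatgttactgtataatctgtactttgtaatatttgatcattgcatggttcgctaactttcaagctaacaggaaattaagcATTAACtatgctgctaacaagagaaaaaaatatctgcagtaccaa
Cldn10 variant b promoter, chr14:118854700-118854979: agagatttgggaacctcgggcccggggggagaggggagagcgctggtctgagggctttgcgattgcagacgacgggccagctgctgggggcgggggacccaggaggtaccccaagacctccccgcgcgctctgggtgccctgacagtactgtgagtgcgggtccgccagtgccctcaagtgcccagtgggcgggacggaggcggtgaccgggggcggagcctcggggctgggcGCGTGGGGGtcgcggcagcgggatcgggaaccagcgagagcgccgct
Cldn10 intron region, chr14:118858350-118858649: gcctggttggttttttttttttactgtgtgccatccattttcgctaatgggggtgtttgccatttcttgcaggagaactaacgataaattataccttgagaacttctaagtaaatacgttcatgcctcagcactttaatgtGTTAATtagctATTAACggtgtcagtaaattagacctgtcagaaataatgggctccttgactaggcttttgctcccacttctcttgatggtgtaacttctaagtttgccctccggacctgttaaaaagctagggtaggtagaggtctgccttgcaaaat
Cldn19 upstream region, chr4:119254153-119254452: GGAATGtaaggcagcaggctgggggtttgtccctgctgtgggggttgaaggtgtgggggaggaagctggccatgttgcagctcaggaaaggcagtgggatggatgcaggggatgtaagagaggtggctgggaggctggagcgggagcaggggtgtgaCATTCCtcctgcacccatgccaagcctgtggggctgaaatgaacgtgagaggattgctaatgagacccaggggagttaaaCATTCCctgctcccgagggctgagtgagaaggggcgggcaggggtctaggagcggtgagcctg
Cldn16 intron region, chr16:26471171-26471470: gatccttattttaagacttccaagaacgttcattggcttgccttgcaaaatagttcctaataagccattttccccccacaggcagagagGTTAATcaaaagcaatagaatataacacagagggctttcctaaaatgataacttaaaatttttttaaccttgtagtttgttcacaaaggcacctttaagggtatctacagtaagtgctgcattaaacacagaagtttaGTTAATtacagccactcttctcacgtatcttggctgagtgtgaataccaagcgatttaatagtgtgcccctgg
Cldn4 promoter, chr5:134946905-134947184, minus strand: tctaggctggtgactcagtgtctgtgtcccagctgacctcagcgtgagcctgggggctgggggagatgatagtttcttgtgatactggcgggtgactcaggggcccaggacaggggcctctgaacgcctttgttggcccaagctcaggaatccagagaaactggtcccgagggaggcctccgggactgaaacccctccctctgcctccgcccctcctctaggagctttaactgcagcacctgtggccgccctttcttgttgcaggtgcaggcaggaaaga

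The motifs searched on both strands were GTTAAT for HNF1, CAAAGTCCA for HNF4, GCCNNNGGC for TFAP2, AGATAAG for GATA, ACAGGAAG for ETS, TCAGGTTTC for Six2, GGAATG for TEAD, ATCAAAG for TCF/LEF, GCGTGGGNG for EGR and WT1, TATAAA for the TATA box and AACCNGTT for GRHL. The Cldn10 intron region held the HNF1 letters at position 142 on the plus strand and at position 153 on the minus strand, counted from the first base printed. The Cldn16 intron region held them at positions 90 and 228, both on the plus strand. Of all 176005 regions searched over their central 300 bases, 11.5% held these letters at least once and 1.05% at least 2 times. The Cldn10 variant a promoter held 1 match, at position 236 on the minus strand, against 6.85% of 32851 promoters of 280 bases. The Cldn19 upstream region held the TEAD letters 3 times, and 0.191% of all regions held them 3 times or more. The variant b promoter, at 72.5% G and C, held 1 match to the EGR and WT1 letters, against 1.82% of promoters, and the variant a promoter was 35.4% G and C. The Cldn4 promoter held none of the motifs searched. No searched motif overlapped another in these sequences, and a match is a description of letters only.

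Cldn3, Cldn4 and Cldn7, claudins of the distal nephron and collecting duct, were most open in ureteric epithelium. In Enl-WT, Cldn3 (chr5:134986214-134987472) stood at 83.1 CPM in ureteric epithelium (interval 75.9 to 90.8) and 53.1 CPM in distal nuclei, against 13.0 CPM in progenitors and 7.94 CPM in stroma. Cldn4 (chr5:134945119-134946934) stood at 47.1 CPM in ureteric epithelium and 28.6 CPM in distal nuclei, and at no more than 8.67 CPM in any other class. Cldn7 (chr11:69964779-69967885) stood at 76.4 CPM in ureteric epithelium, 61.9 CPM in distal nuclei and 39.97 CPM in proximal tubule. For all 3 genes the interval of ureteric epithelium lay above that of distal nuclei, and that of distal nuclei above that of proximal tubule. In Enl-T1 the ureteric levels were 79.1, 56.5 and 69.9 CPM for Cldn3, Cldn4 and Cldn7, the highest of each gene in that library. For Cldn3 the ureteric interval there overlapped that of distal nuclei, at 73.9 CPM (47.8 to 109).

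Cldn16 and Cldn19 form the paracellular route for magnesium and calcium in the thick ascending limb of the loop of Henle. Both were most open in distal nuclei of Enl-WT. Cldn19 (chr4:119255414-119262438) stood at 62.4 CPM there (55.5 to 69.9), 46.1 CPM in ureteric epithelium, 28.2 CPM in proximal tubule, 14.4 CPM in podocytes, 13.5 CPM in early nephron epithelium and 4.92 CPM in progenitors. The single region of Cldn19 was centred at -1.11 kb from its start. Cldn16 (chr16:26463135-26482765) was low throughout, with 12.02 CPM in distal nuclei (9.10 to 15.57) and 8.08 CPM in ureteric epithelium, whose intervals overlapped, and at most 2.02 CPM in any other class. The intron region of Cldn16 shown above, 8.2 kb from its start, had a peak in Enl-WT alone and was highest in distal nuclei, at 19.3 CPM (15.54 to 23.7) against at most 2.55 CPM in the other classes.

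**Figure D1:**
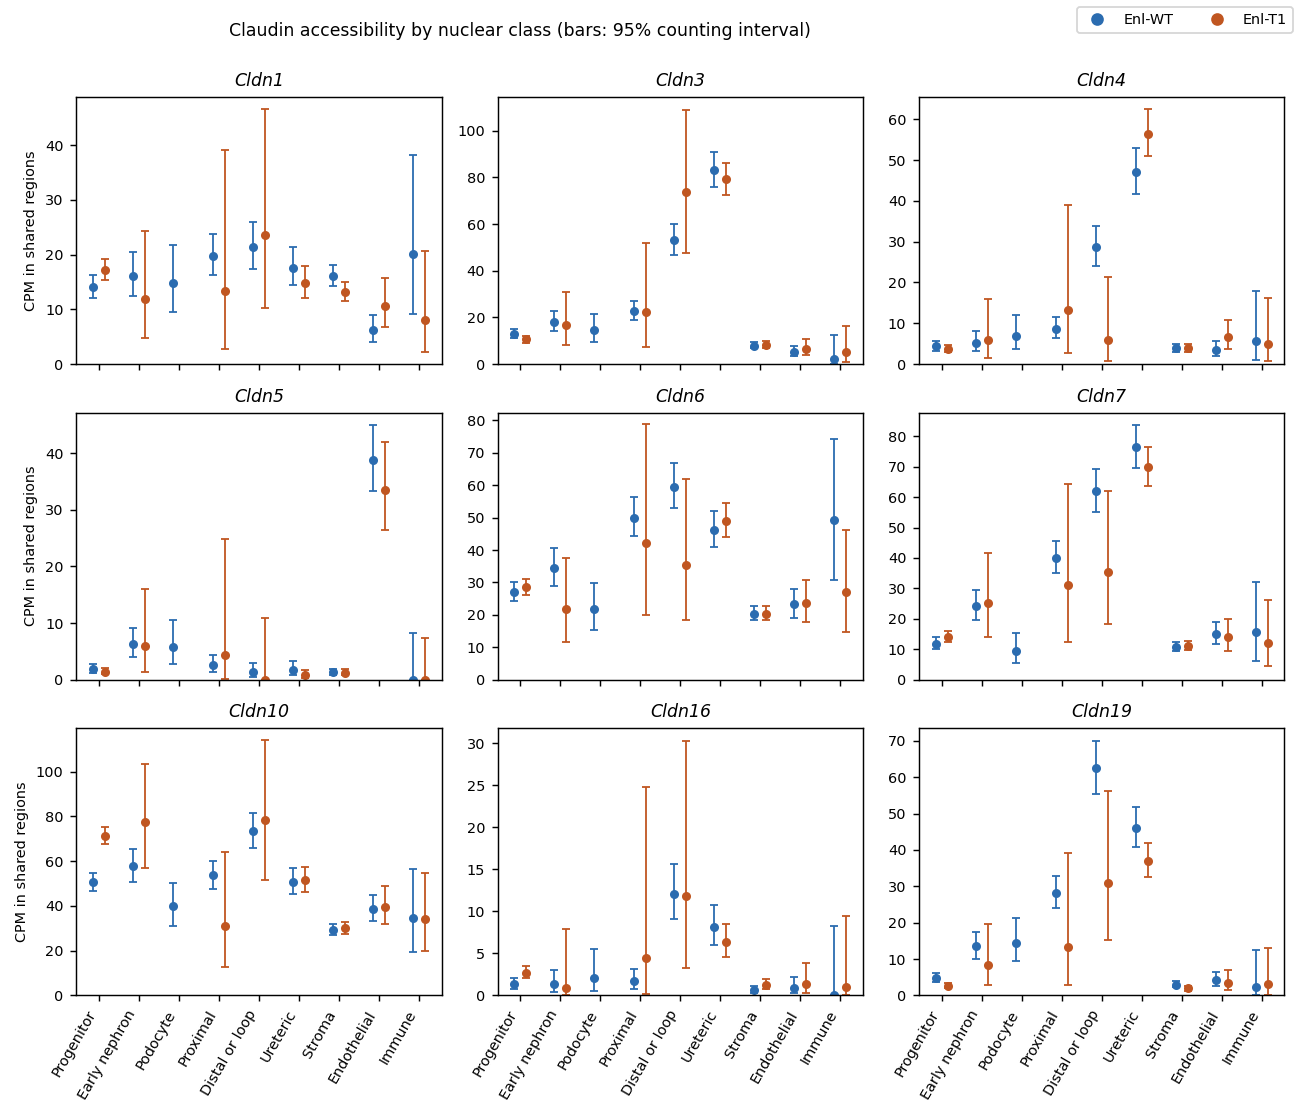
Accessibility of the 9 claudins with shared regions (y axis, CPM) in 9 classes of nuclei (x axis) of the Enl-WT and the Enl-T1 library, with 95% counting intervals. Cldn3, Cldn4 and Cldn7 peak in ureteric epithelium, Cldn5 peaks in endothelium, Cldn19 stands at 62.4 CPM in distal nuclei of Enl-WT and 31.0 CPM in Enl-T1, and podocytes have Enl-WT points alone.

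Cldn10 (chr14:118787908-118875489) has an upstream and a downstream group of start sites. Variant a, from the upstream site, makes an anion-selective claudin of the proximal tubule, and variant b, from a downstream site at chr14 position 118854732, makes a cation-selective claudin of the thick ascending limb. The start-site region of variant a had a peak in Enl-WT alone, with 16.4 CPM in proximal tubule (13.2 to 20.1), 6.72 CPM in ureteric epithelium, 4.32 CPM in distal nuclei and at most 1.62 CPM in the other classes. Introns downstream of it were open in proximal tubule too, at 21.9 CPM 16.6 kb from the start, 16.2 CPM at 20.1 kb and 11.7 CPM at 5.6 kb. The start-site region of variant b was shared and ranged in Enl-WT from 7.26 CPM in endothelium to 13.0 CPM in podocytes. Over its 8 shared regions, Cldn10 stood at 73.3 CPM in distal nuclei of Enl-WT, 57.8 CPM in early nephron epithelium, 53.6 CPM in proximal tubule, 50.9 CPM in ureteric epithelium and 50.7 CPM in progenitors, the last 4 with overlapping intervals, and at 29.4 CPM in stroma. The proximal value leaves out the variant a site, which is not shared.

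Cldn2 (chrX:139800828-139811386), which makes the pore for sodium and water in the proximal tubule, was read in Enl-WT alone. Its 5 regions held 155 to 215 counts each. Of these, 4 were highest in proximal tubule, at 9.75, 6.80, 5.28 and 4.74 CPM, and the region 2.7 kb from the start was highest in stroma, at 3.02 CPM. Of the 15 member regions with a peak in Enl-WT alone, 11 were highest in proximal tubule, which was the highest class for 16.6% of all 47872 such regions. These 15 were not spread over the members, since 7 lay in Cldn10, 5 in Cldn2, 2 in Cldn16 and 1 in Cldn1. Regions of the same gene were counted apart. Proximal nuclei numbered 821 against 50. Peaks were called on whole libraries, so that fewer proximal nuclei and less open chromatin in each of them cannot be told apart for these regions.

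**Figure D2:**
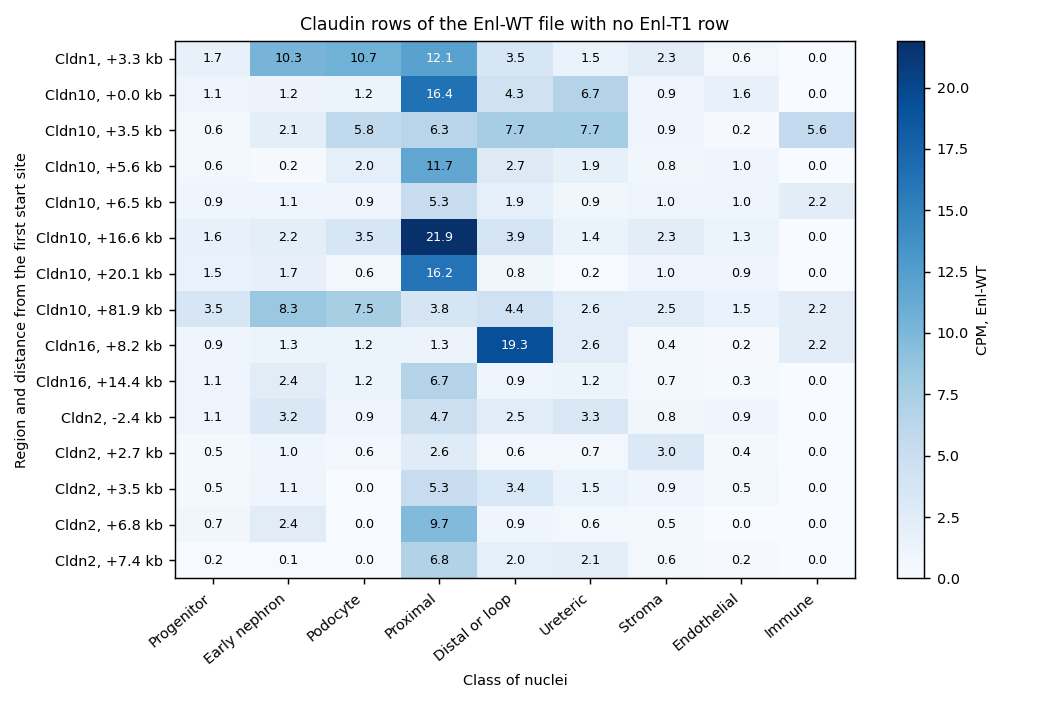
Level in Enl-WT (CPM, printed in each cell and shaded) of the 15 claudin regions with a peak in that library alone, by class of nuclei (columns) and by distance from the first start site of the gene (rows). The proximal column is the highest in 11 rows, and the Cldn16 region at 8.2 kb stands at 19.3 CPM in distal nuclei.

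Cldn5 is the main claudin of endothelium, and its shared region was most open there and not in a nephron segment. This region, centred at -1.01 kb from the start of the gene (which spans chr16:18776847-18778262), stood at 38.8 CPM in endothelium of Enl-WT (33.3 to 44.9) and 33.6 CPM in Enl-T1 (26.5 to 42.0), against at most 6.24 CPM in any other class of either library. At the start site itself the Enl-T1 file had a peak and the Enl-WT file none. That peak stood at 46.5 CPM in endothelium, 32.1 CPM in early nephron epithelium from 38 counts, with overlapping intervals (38.1 to 56.2 and 19.3 to 50.1), near 17.8 CPM in proximal and distal nuclei from 8 and 12 counts, and 8.53 CPM in progenitors. A further peak of Enl-T1 alone, 0.78 kb past the start, was highest in early nephron epithelium, at 16.0 CPM from 19 counts, with 7.80 CPM in progenitors and 4.82 CPM in endothelium.

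Cldn1 (chr16:26356642-26371841), known in the kidney from the parietal epithelium of the glomerulus, and Cldn6 (chr17:23679249-23682446), a claudin of embryonic epithelia, had no sharp peak. Cldn1 ranged in Enl-WT from 14.1 CPM in progenitors to 21.4 CPM in distal nuclei, with neighbouring classes overlapping, and stood at 6.17 CPM in endothelium. An intron region of Cldn1, 3.3 kb from its start, had a peak in Enl-WT alone and was highest in proximal tubule, podocytes and early nephron epithelium, at 12.1, 10.7 and 10.3 CPM. Cldn6 ranged from 20.4 CPM in stroma to 59.6 CPM in distal nuclei, but its upstream region also holds the start site of Tnfrsf12a, a receptor gene, and the counts of the genes cannot be told apart there. In all, 8 of the 9 members with shared regions were highest in distal or ureteric nuclei of Enl-WT, and Cldn5 was the exception. For Cldn1, Cldn6 and Cldn16 the highest interval overlapped that of the next class. The same share over all genes was not computed, so this count is a description of the members only.

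The members were next compared between the libraries within each class. A gene or region entered with at least 200 counts over both libraries, and the ratio of Enl-T1 to Enl-WT was read on the log2 scale. Ratios past 1.5-fold were counted and are given beside the share of all genes past the same fold in that class. In progenitors 7 members entered, 0 were higher and 1, Cldn19, was lower. Of all genes there, 1.57% were higher and 2.18% lower. The median of the members was 0.08, against 0.01 over all genes.

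Cldn10 was more open in Enl-T1 progenitors, at 71.5 CPM (67.7 to 75.4) against 50.7 CPM (46.9 to 54.7) in Enl-WT. The log2 ratio of 0.50 (0.36 to 0.63) is short of 1.5-fold, and it was 0.27 with thinned nuclei. It was 0.32 when doublet-like nuclei were left out, but the class itself then changed. In that setting 1142 Enl-T1 nuclei were named progenitor and 2630 early nephron epithelium, against 1290 and 989 in Enl-WT. Most of the Cldn10 difference lay in an intron region (chr14:118858026-118858973) centred 3767 bp past the variant b start, whose sequence is shown above. It stood at 24.0 CPM in Enl-T1 progenitors (916 counts) and 8.85 CPM in Enl-WT progenitors (230 counts), a log2 ratio of 1.44 (1.15 to 1.75). Without this region the ratio of the gene was 0.18 (0.03 to 0.34). The larger Enl-T1 cluster stood at 24.9 CPM and the smaller at 22.2 CPM, against 8.86 CPM in the main Enl-WT cluster. After each nucleus was thinned to 2000 counts, 4.20% of Enl-T1 progenitors (171 of 4071) and 1.89% of Enl-WT progenitors (35 of 1853) held a count in it, and 10.7% and 6.03% did before thinning. Thinning left out 1 and 3 nuclei. The exact binomial intervals were 3.61% to 4.86% and 1.32% to 2.62%. In ureteric epithelium the region stood at 1.02 CPM, and the shares after thinning were 0.186% in Enl-T1 (3 of 1617) and 0.349% in Enl-WT (3 of 860). These are too few nuclei for that class to show an effect of depth. Median depth in Enl-T1 and Enl-WT was 9011.5 and 15328 counts there and 9997.5 and 15822 in progenitors.

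The same intron region stood at 22.0 CPM in the 127 early nephron nuclei of Enl-T1 (26 counts, 11.7 to 37.5) and 9.18 CPM in Enl-WT. With the libraries clustered apart its log2 ratio was 1.33 in progenitors and 1.74 in early nephron epithelium. In early nephron epithelium it ran from 0.41, with thinned nuclei, to 1.74 over the alternatives. In distal nuclei it stood at 10.3 and 9.91 CPM, in stroma at 1.77 and 1.90 CPM, and in ureteric epithelium at 1.02 CPM in both libraries. Across the 7 Cldn10 regions with enough counts in progenitors, 3 were past 1.5-fold higher and 0 lower, against 11.3% of all regions higher and 12.5% lower. The others past the fold lay 46.6 kb and 87.1 kb from the upstream start, at 9.24 against 6.04 CPM and 8.64 against 5.35 CPM. The variant b start-site region stood at 11.01 CPM in Enl-T1 and 10.6 CPM in Enl-WT. A region with a peak in Enl-T1 alone, between the start sites at 63.9 kb, stood at 4.80 CPM in progenitors from 183 counts and at 3.61 CPM in stroma. Marker sums of other classes differed in both directions in progenitors. The 10 early nephron markers summed to 479 CPM in Enl-WT and 582 CPM in Enl-T1, with 2 past 1.5-fold higher, the 10 distal markers to 430 and 539 CPM with 0 higher and 1 lower, and the 8 progenitor markers to 381 and 315 CPM. Erythroid and neural markers were also higher in Enl-T1, at 79.0 against 71.3 CPM in Enl-WT and 136 against 131 CPM, but the neural ratio had an interval that held 1. Lower in Enl-T1 were the markers of podocytes (392 CPM in Enl-WT and 345 CPM in Enl-T1), immune nuclei (297 and 264 CPM), proximal tubule (213 and 198 CPM) and stroma. Those of ureteric epithelium and endothelium were lower too, with ratio intervals that held 1. The part of these markers in the Cldn10 values was not tested.

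**Figure D3:**
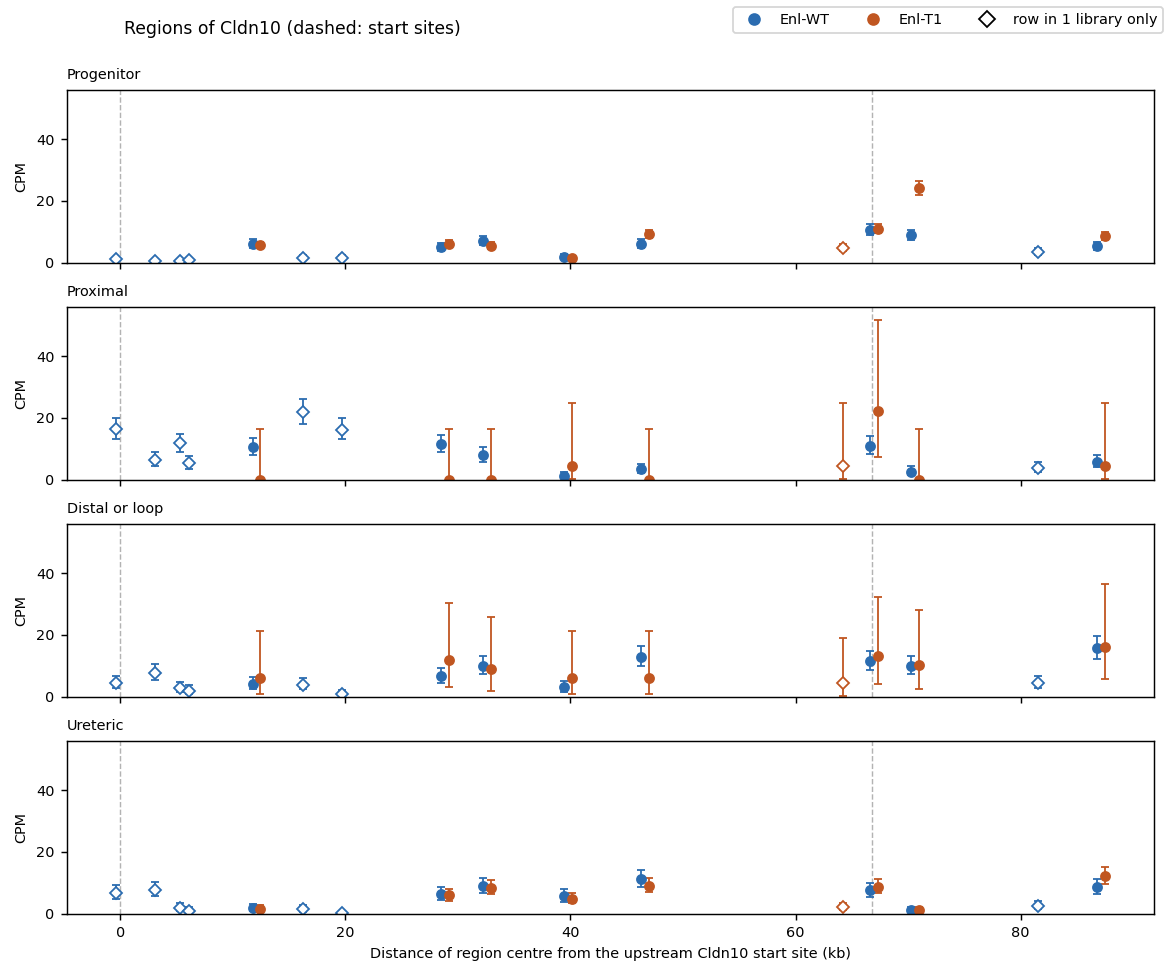
Level (CPM, y axis) of each Cldn10 region by the distance of its centre from the upstream start site (kb, x axis) in 4 classes, with 95% counting intervals; dashed lines are the start sites and open diamonds are regions with a peak in 1 library. In progenitors the region 70.6 kb along stands at 24.0 CPM in Enl-T1 and 8.85 CPM in Enl-WT, and in proximal tubule the Enl-WT regions without an Enl-T1 peak reach 21.9 CPM. Paired points are set apart sideways for sight.

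Cldn19 was less open in Enl-T1 progenitors, at 2.63 CPM from 100 counts against 4.92 CPM from 128 counts, a log2 ratio of -0.91 (-1.47 to -0.35) that ran from -1.07 to -0.51 over the alternatives. In both libraries this is far under the distal level. Cldn1 stood at 17.1 CPM in Enl-T1 and 14.1 CPM in Enl-WT progenitors, a log2 ratio of 0.28 (0.02 to 0.55) that became -0.032 with thinned nuclei, and its second start-site region at 5.49 and 3.31 CPM. The intervals of Cldn3, Cldn4, Cldn6 and Cldn7 in progenitors held a ratio of 1, with log2 ratios from -0.30 to 0.26. In the smaller Enl-T1 cluster alone Cldn3 stood at 8.59 CPM against 12.98 CPM in the main Enl-WT cluster, a log2 ratio of -0.59 (-1.11 to -0.10). Cldn6 was at 0.28 there (0.01 to 0.56). In the larger Enl-T1 cluster Cldn3 was at -0.20 and Cldn6 at -0.005, with intervals that held a ratio of 1. Cldn16 did not reach 200 counts, with 103 counts in Enl-T1 and 34 in Enl-WT progenitors, or 2.70 and 1.31 CPM. Cldn5 did not reach them either, with 55 and 48 counts.

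In distal nuclei 7 members entered and 4 were lower in Enl-T1 by more than 1.5-fold, against 11.2% of all genes, and 0 were higher, against 5.05%. The median of the members was -0.75 and that of all genes -0.05. The 79 distal nuclei of Enl-T1 gave few counts, and the intervals are wide. Cldn4 stood at 28.6 CPM in Enl-WT (271 counts) and 5.91 CPM in Enl-T1 (4 counts), with a log2 ratio of -2.27 (-5.33 to -0.39). Cldn19 stood at 62.4 and 31.0 CPM, the latter from 21 counts, a log2 ratio of -1.01 (-2.05 to -0.13). For Cldn7, at 61.9 and 35.5 CPM, and Cldn6, at 59.6 and 35.5 CPM, the log2 ratios of -0.80 and -0.75 had intervals that reached a ratio of 1. The Cldn6 region that holds the Tnfrsf12a start stood at 25.8 and 11.8 CPM, and at the start of Cldn6 itself the levels were 33.7 and 23.6 CPM, a log2 ratio of -0.51 that is short of 1.5-fold. Cldn3 stood at 53.1 CPM in Enl-WT and 73.9 CPM in Enl-T1, with a log2 ratio of 0.47 (-0.18 to 1.07) that was -0.36 at a finer clustering and -0.94 with the libraries clustered apart, and Cldn10 at 73.3 and 78.3 CPM. The 10 distal markers summed to 1049 CPM in Enl-WT and 941 CPM in Enl-T1 in these nuclei, with 2 past 1.5-fold lower and 0 higher, and the 11 ureteric markers to 620 and 570 CPM, with 2 lower and 1 higher. Their part in the claudin values was not tested.

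In ureteric epithelium, where Enl-T1 had more nuclei than Enl-WT, 7 members entered and 0 passed 1.5-fold, against 0.747% of all genes higher and 0.577% lower. Cldn4 stood at 56.5 CPM in Enl-T1 and 47.1 CPM in Enl-WT, a log2 ratio of 0.26 (0.04 to 0.49), which became -0.022 with thinned nuclei. Cldn19 stood at 37.1 CPM in Enl-T1 and 46.1 CPM in Enl-WT, a log2 ratio of -0.31 (-0.57 to -0.06). The intervals of the other 5 members held a ratio of 1, and their log2 ratios ran from -0.25 to 0.08.

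**Figure D4:**
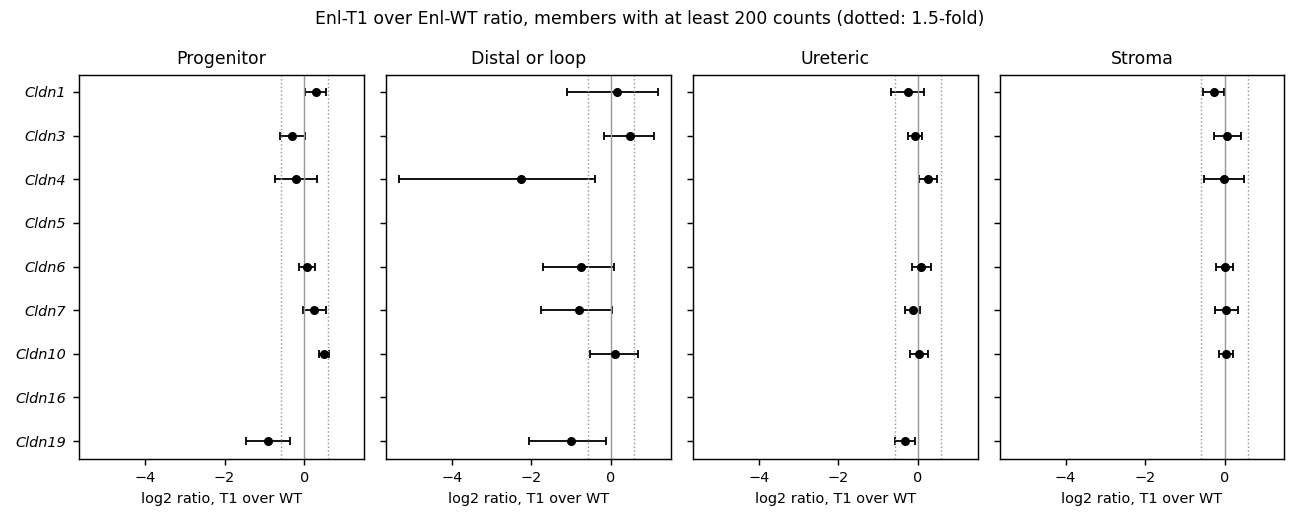
Log2 ratio of Enl-T1 over Enl-WT (x axis) of each claudin with at least 200 counts (y axis) in progenitors, distal nuclei, ureteric epithelium and stroma, with 95% counting intervals and dotted lines at 1.5-fold. The ratios in ureteric epithelium and stroma lie within 1.5-fold, Cldn10 stands at 0.50 in progenitors, and Cldn4 at -2.27 in distal nuclei has the widest interval.

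In proximal tubule 6 members entered and 2 were past 1.5-fold lower, Cldn10 and Cldn19, against 18.0% of all genes, and 0 were higher, against 8.15%. Both rest on few counts of the 50 Enl-T1 nuclei, 14 for Cldn10 and 6 for Cldn19, and both intervals held a ratio of 1. The direction of Cldn10 turned with the regions counted, since its log2 ratio was -0.78 over all shared regions and 1.03 in start-site windows, where the variant b start stood at 22.3 CPM in Enl-T1 and 10.9 CPM in Enl-WT. It was also above 0, at 0.18 and 0.037, with a coarser clustering and with thinned nuclei. The 10 proximal markers summed to 484 CPM in Enl-WT and 296 CPM in Enl-T1, with 4 past 1.5-fold lower and 0 higher. In early nephron epithelium 3 members entered and 1, Cldn6, was lower, at 22.0 CPM against 34.4 CPM with an interval that held a ratio of 1, beside 5.87% of all genes lower and 3.17% higher. The region with the Tnfrsf12a start stood there at 9.29 CPM in Enl-T1 and 20.9 CPM in Enl-WT, and the start of Cldn6 itself at 12.7 and 13.5 CPM, a log2 ratio of -0.089. In stroma 6 members entered and 0 passed the fold, against 0.914% of all genes higher and 0.784% lower, with Cldn1 at 13.2 CPM in Enl-T1 and 16.1 CPM in Enl-WT, a log2 ratio of -0.28 (-0.53 to -0.03). In endothelium 4 members entered and 0 passed it, against 1.17% higher and 0.874% lower. Cldn5 had a log2 ratio of -0.21 (-0.61 to 0.19) there, in its upstream shared region alone.

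Over all kept nuclei 9 members entered, and 2 were past 1.5-fold lower in Enl-T1, against 0.886% of all genes, and 0 higher, against 0.987%. Cldn19 stood at 15.8 CPM in Enl-WT and 7.97 CPM in Enl-T1, with a log2 ratio of -0.99 (-1.16 to -0.82). Cldn5 stood at 5.03 and 2.98 CPM, a log2 ratio of -0.76 (-1.05 to -0.47). This Cldn5 value covers its upstream shared region alone. The 2 Enl-T1 peaks at and just past the start site, at 8.10 and 5.79 CPM, had no Enl-WT peak and were left out. Over the 8 classes with enough nuclei in both libraries, the log2 ratios of Cldn19 and Cldn5 were -1.08 and -0.82. When the Enl-T1 classes were weighted by the makeup of Enl-WT, they became -0.71 and -0.18. Cldn10 stood at 45.1 CPM in Enl-WT and 50.9 CPM in Enl-T1.

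The wider tight junction was read from 37 further genes, among them other claudins, scaffold proteins, occludin and the junctional adhesion molecules, of which 32 had a shared region. In progenitors 31 entered, with 0 higher and 1 lower past 1.5-fold and a median log2 ratio of 0.01. In distal nuclei 29 entered, with 0 higher and 3 lower and a median of -0.10, near the share of all genes given above for that class. In ureteric epithelium 32 entered, with 1 higher and 0 lower and a median of 0.02. In proximal tubule 30 entered, with 2 higher and 4 lower and a median of -0.12, against 8.15% and 18.0% of all genes. The largest ratios in distal nuclei were those of Cldn8, a claudin of the collecting duct that partners Cldn4, at 8.86 CPM in Enl-T1 (6 counts) and 22.8 CPM in Enl-WT, and of Ildr1, a protein of tricellular junctions, at 16.2 CPM (11 counts) and 37.2 CPM, with log2 ratios of -1.36 and -1.20 whose intervals held a ratio of 1. In proximal tubule Mpdz, a scaffold, stood at 53.4 CPM in Enl-T1 from 24 counts and 24.1 CPM in Enl-WT. Cldn15, a claudin known from the intestine, is named here after its values were seen. In proximal tubule it had 354 counts in Enl-WT, or 31.7 CPM (27.2 to 36.7). In Enl-T1 it had 0 counts, with an interval that reached 16.4 CPM.

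The genes whose levels most resembled each claudin were sought over the 17 sums of a class and a library, leaving out genes within 500 kb, and the correlations are descriptions over sums that share libraries. Cldn7 was nearest to Epcam (Pearson r of 0.95), whose protein binds claudin-7, and to Cdh1, which encodes E-cadherin. Cldn19 was nearest to Tfcp2l1 (0.97), a transcription factor of the distal nephron and collecting duct, Cldn3 to Vwa2 (0.98), and Cldn4 to AI661453 (0.95) and Scnn1b (0.93), a subunit of the epithelial sodium channel. Cldn16 was nearest to Kng2 (0.95) and Cldn5 to Maats1 (0.92), Sel1l2 (0.91) and Flt1 (0.90), a VEGF receptor of endothelium. Cldn10 (Dbndd1, 0.88), Cldn6 (Sfn, 0.90) and Cldn1 (Gm47289, 0.86), which varied least between the sums, had the lowest values.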

How the data were processed

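The authors prepared single nuclei of E15.5 kidneys and deposited, for each of the 2 libraries, a matrix of counts of cut sites per peak and nucleus with its peaks and barcodes, made per the labels with Cell Ranger ATAC 2.1.0 on mm10. Peaks were called in each library apart. The aligner settings were not given in the sources used here. Most counts were even (91.1% and 88.0% of values), so intervals (exact Poisson, and conditional binomial for ratios) were set on counts divided by 2, and cover counting error only. Molecules amplified by PCR are not independent.

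Peaks of the libraries were joined where they overlapped by 1 bp, giving 110706 shared regions, which held 88.8% and 94.9% of the counts. Nuclei were clustered on latent semantic components 2 to 30 of both libraries together (igraph 0.11.9 and leidenalg 0.10.2, resolution 1), without the claudin regions. Clusters were named by marker lists and by scoring rules set after the clusters were seen: a mean rise of at least 0.4 on the log2 scale, 3 raised markers, a lead of 0.1 over the next lineage, and no sign of mixed nuclei. Doublets were kept; their removal by the authors is not stated, and leaving out the most doublet-like nuclei is among the alternatives. All 10 claudins are named; of the tight junction list up to 4 genes a class with a log2 ratio of at least 1 and 200 counts; and for each claudin the 3 genes most like it. An item that this rule names is not reported here. Members and lists were chosen with earlier results of these data known. The ratio was tested on simulated data. No replicate exists, so no p-value is given.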

Additional observations from a re-analysis of the deposited data

Results flagged for a closer look

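The Cldn1 log2 ratio of Enl-T1 over Enl-WT had opposite signs in a pair of classes, 0.28 in progenitors and -0.28 in stroma, with neither interval holding 0, a gap of 0.56. The stromal part lay at the first start site, which stood at 7.28 CPM in Enl-T1 and 10.9 CPM in Enl-WT, while in progenitors that region stood at 9.98 and 9.46 CPM. The difference between the classes was not tested, and each class rests on 1 library a group. With each nucleus thinned, the progenitor ratio was -0.032 and the stromal ratio -0.016.

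The Cldn4 log2 ratio also had opposite signs, 0.26 in ureteric epithelium and -2.27 in distal nuclei, a gap of 2.54. The distal value rests on 4 counts in the Enl-T1 library, and this difference was not tested either. Ureteric epithelium held 777 Cldn4 counts in Enl-T1 and 554 in Enl-WT.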

How the results depend on the processing

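The Cldn10 intron region kept a log2 ratio between 1.15 and 1.496 in progenitors under every alternative run. Cldn10 as a whole gave 0.060 in start-site windows, 0.27 as the share of thinned nuclei and, chosen after seeing the data, 0.18 without the intron region. It gave 0.32 without doublet-like nuclei, where 1142 Enl-T1 nuclei were named progenitor and 2630 early nephron epithelium. The count of 1 member lower in progenitors, Cldn19, became 0 at resolution 2, with components 2 to 15 and with a naming lead of 0.2. The count was also 0 with doublet-like nuclei left out, at a fold of 2, and in the larger Enl-T1 cluster alone (added after seeing the data). In that cluster the Cldn19 log2 ratio was still -0.91, but its 128 Enl-WT and 71 Enl-T1 counts fell short of the minimum to enter. Over all alternatives the Cldn19 ratio in progenitors stayed below 0, from -1.07 to -0.51. Enl-T1 progenitors numbered 2267 at resolution 2, 3845 with components 2 to 15 and 1152 with the lead of 0.2, against 4072 in the main setting. With thinned nuclei Cldn19 was short of 1.5-fold, at -0.51, while Cldn4 was past it, at -0.64. At a minimum of 50 counts 1 member was higher. In early nephron epithelium the 1 lower became 0 with components 2 to 15, start-site windows, thinning or a fold of 2, 2 at 50 counts, and 5 with the libraries clustered apart; at a minimum of 5000 counts no such class was named in Enl-WT. In proximal tubule the 2 lower became 1 at a fold of 2, and 1 was higher at 50 counts; 6 settings left under 50 Enl-T1 nuclei. In distal nuclei the 4 lower became 3 in start-site windows or without doublet-like nuclei, where Cldn6 was at -0.51 and -0.52, and 2 at a fold of 2, and 1 was higher at a minimum of 5000 counts and after thinning. Stroma gave 1 lower after thinning and 1 lower and 1 higher at 50 counts, and endothelium 2 higher at 50 counts. Of the tight junction list, distal nuclei gave 6 lower and 1 higher with libraries clustered apart, 1 lower on matched regions and 1 higher under median of ratios, and progenitors 0 lower with libraries clustered apart. Among ratios whose interval held no ratio of 1, the sign turned for Cldn1 in progenitors, at -0.032, and Cldn4 in ureteric epithelium, at -0.022, both after thinning. It also turned under at least 1 alternative for 12 ratios whose interval held 1, among them Cldn10 in proximal tubule, at 1.03 in start-site windows. The distal ratio of Cldn3 was -0.36 at resolution 2 and -0.94 with the libraries clustered apart. Median of ratios subtracts the median log2 ratio of the regions of a class. This median was -0.19 in proximal tubule, -0.12 in immune cells and -0.11 in distal nuclei, so that values there were raised. Shifts elsewhere were smaller. The cause of these shifts was not tested. No paired analysis was possible because each group is 1 library. Distal and proximal values of Enl-T1 rest on 79 and 50 nuclei, whose median depth of 9030 and 9721 counts was above the 8753 of all kept Enl-T1 nuclei. The Enl-WT nuclei they are compared with were deeper, at a median of 15645 counts in distal and 16170 in proximal nuclei.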
